A study of Mus musculus with 8 samples.

Results

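The genes described here are 42 interferon-stimulated and RNA sensing genes of the mouse, followed in irradiated small intestinal crypts with and without the miR-29ab1 locus. They were chosen by name from the gene symbols of the expression table, with earlier results of these data known. They fall into 8 sensors and sensor partners, 7 transcription factors of the IRF and STAT families, 1 interferon receptor chain and 26 effectors. The table held 40 of the 42 genes, out of 17634 genes in all, and all 40 had enough counts to be among the 12908 genes tested. The effectors Mx1 and Mx2 are not analysed here.

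RNA sequencing compared small intestinal crypts, the pockets of stem and dividing cells at the base of the villi, between 2 genotypes of C57BL/6N mice. One group was WT and the other miR-29ab1-/-, called knockout here, which lacks the genes for miR-29a and for one of the 2 copies of miR-29b. Every library, in both groups, came from crypts taken 3 days post irradiation, and there were 4 libraries per genotype. Unirradiated crypts are not analysed here, and neither the radiation dose nor the age of the mice is stated in the labels.

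Cells recognise foreign or misplaced double-stranded RNA through the helicases RIG-I (Ddx58) and MDA5 (Ifih1), which signal through the adaptor MAVS to switch on interferons. Type I and type III interferons act through their receptors and the kinases JAK1 and TYK2 to form a factor with STAT2 and IRF9 that binds the interferon-stimulated response element (ISRE). Interferon gamma acts through JAK1 and JAK2 on genes with the gamma-activated sequence (GAS). In the gut epithelium the type III receptor chain IFNLR1 is the prominent entry point for antiviral interferon.

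The microRNAs of the miR-29 family are shown first, since the deleted locus encodes miR-29a and miR-29b. Their mature sequences, from RefSeq on GRCm38.p6, are printed 5′ to 3′ with the seed (bases 2 to 8) in capitals.
mmu-miR-29a-3p, chr6:31062673-31062694, minus strand: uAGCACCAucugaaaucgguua
mmu-miR-29b-3p, chr6:31063025-31063047, minus strand: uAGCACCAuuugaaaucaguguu
mmu-miR-29c-3p, chr1:195037600-195037621, plus strand: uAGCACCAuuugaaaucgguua
All of them carry the seed AGCACCA. The mature miR-29b is also encoded by a second gene, Mir29b-2 on chromosome 1 next to Mir29c. The labelled deletion names neither Mir29b-2 nor Mir29c, so miR-29c is printed for comparison and not as a deleted microRNA. None of the miR-29 genes was a row of the table as used here, so the genotype labels were not checked against them.

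A target site with the seed match TGGTGCT was found in the longest annotated 3′ UTR of 4 of the 42 genes (9.52%), against 1955 of 12670 tested genes with a UTR (15.4%). The 4 genes were Ddx58, Trim25, Irf1 and Rsad2. The sites are shown because these are the members that the lost microRNAs could pair with by this measure. The seed match is in capitals, each site lies within 1 exon, and the coordinates are GRCm38.
Ddx58, chr4:40205649-40205673, minus strand: tggttggtttcaagcTGGTGCTgtc
Trim25, chr11:89017341-89017365, plus strand: atattatcatctcttTGGTGCTggg
Rsad2, chr12:26444104-26444128, minus strand: gtttggggtttttttTGGTGCTtat
Irf1, chr11:53777627-53777651, plus strand: ctgtaagctgccatgTGGTGCTgaa
Ddx58, Trim25 and Rsad2 rose in the knockout and Irf1 was not called, with values given below. A seed match in a UTR is a description of the sequence, not evidence of binding.

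The promoters were examined for the sequences that interferon-activated factors bind. RefSeq promoters of 300 bases (250 before to 50 after an annotated start) were matched for 32 of the 42 genes, which have 37 promoters between them. The ISRE core was searched as GAAANNGAAA and the GAS core as TTCNNNGAA, on both strands. An ISRE core was present in 17 of the 37 member promoters (45.9%), against 1131 of all 32851 promoters in the table (3.44%) and 416 of the 12965 promoters of tested genes (3.21%). A GAS core was present in 9 of the 37 (24.3%), against 8.30% of all promoters. The 17 promoters held 26 ISRE matches, of which 11 overlapped another one, and 1 of the 11 GAS matches overlapped an ISRE match.

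Isg15 and Bst2 are shown in full because they hold like elements and moved in opposite directions: Isg15 rose and Bst2 fell in the knockout. Both are printed on the gene's own strand, GRCm38.p6, with the ISRE cores in capitals.
Isg15, chr4:156200769-156201068, minus strand: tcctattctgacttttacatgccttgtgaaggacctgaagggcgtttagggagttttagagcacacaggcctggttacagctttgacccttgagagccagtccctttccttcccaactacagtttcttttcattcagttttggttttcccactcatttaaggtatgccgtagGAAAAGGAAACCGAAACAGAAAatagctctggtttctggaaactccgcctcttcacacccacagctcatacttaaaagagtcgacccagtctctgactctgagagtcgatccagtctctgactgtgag
Bst2, chr8:71537423-71537722, minus strand: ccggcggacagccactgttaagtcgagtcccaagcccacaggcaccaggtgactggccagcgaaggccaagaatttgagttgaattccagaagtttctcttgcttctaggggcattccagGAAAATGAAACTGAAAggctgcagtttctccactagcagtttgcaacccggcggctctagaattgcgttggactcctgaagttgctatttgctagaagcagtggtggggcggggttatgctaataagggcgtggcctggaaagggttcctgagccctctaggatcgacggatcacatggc
The Isg15 run holds 3 overlapping ISRE cores that begin 78, 72 and 66 bases before the start site, and the Bst2 run holds 2 that begin 130 and 124 bases before it.

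Shorter windows of 30 bases (28 for Ifih1, whose motif lies near the end of the promoter) are given for a sensor, factor and effector set. They are printed on the gene's strand with 1 core in capitals in each. The Oas1a, Oas1g and Gbp3 windows also hold another core, which overlaps the marked one and is left partly in lower case. In Ddx58, Stat2, Ifit1, Gbp2, Gbp3 and Gbp7 the match is on the opposite strand and so reads as TTTC, 2 bases and TTTC.
Ddx58, chr4:40239804-40239833, minus strand: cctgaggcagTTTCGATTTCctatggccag
Ddx60, chr8:61928024-61928053, plus strand: gtgatgaatgGAAACCGAAActtaaagctt
Ifih1, chr2:62646206-62646233, minus strand: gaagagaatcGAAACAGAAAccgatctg
Stat2, chr10:128270266-128270295, plus strand: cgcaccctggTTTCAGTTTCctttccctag
Oas3, chr5:120777715-120777744, minus strand: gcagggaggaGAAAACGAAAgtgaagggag
Oas1a, chr5:120907520-120907549, minus strand: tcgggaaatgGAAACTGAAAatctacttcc
Oas1g, chr5:120887606-120887635, minus strand: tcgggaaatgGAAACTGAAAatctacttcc
Ifit1, chr19:34640775-34640804, plus strand: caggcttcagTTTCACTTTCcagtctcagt
Gbp2, chr3:142620594-142620623, plus strand: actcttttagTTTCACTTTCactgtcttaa
Gbp3, chr3:142559989-142560018, plus strand: caggacacagTTTCAGTTTCtatttcccag
Gbp7, chr3:142530273-142530302, plus strand: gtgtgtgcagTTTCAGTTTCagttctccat
The Oas1a and Oas1g windows are identical. By gene, 12 of the 22 matched members that rose in the knockout had an ISRE core, as did 2 of the 2 that fell and 3 of the 8 that were not called, so genes of each kind carried it.

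**Figure D1:**
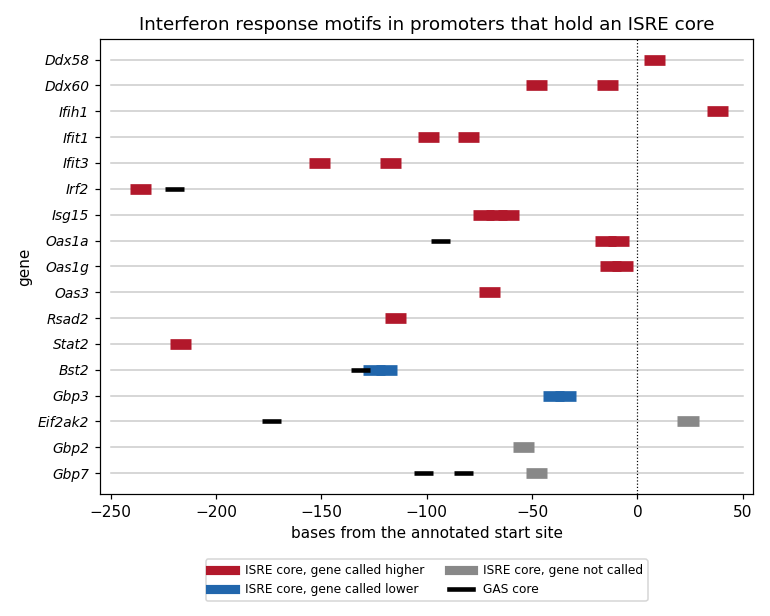
Positions of the ISRE core (thick blocks) and GAS core (thin black blocks) in the promoters of the 17 members that hold an ISRE core, in bases from the annotated start site (0). Block colour gives the knockout call: red higher, blue lower, grey not called. Genes called higher and the 2 called lower, Bst2 and Gbp3, both carry the ISRE core.

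Some facts of the whole table frame the member values. Libraries held 10719668 to 16231099 counts in wild type and 9481201 to 14612798 in the knockout, with knockout replicate 3 the shallowest. The 22 enterocyte markers all rose, with a summed level of 2520 to 14300 CPM (a gene's counts scaled to a common library total) in wild type and 34600 to 114000 CPM in the knockout, and 7 of 8 stem and dividing cell markers fell. Of the 12 T and NK cell markers, 0 were called by edgeR or DESeq2 and 0 had an unadjusted p below 0.05, but their sum was 523, 537, 430 and 63.6 CPM in wild-type replicates 1 to 4 and 912, 373, 1990 and 251 CPM in the knockout ones. Fibroblast markers summed to 172 CPM in wild-type replicate 3 and to 194 and 200 CPM in knockout replicates 3 and 4, against 13.5 to 50.6 CPM in the other libraries. Neutrophil markers summed to 40.1 to 45.1 CPM in wild type and 1.68 to 26.8 CPM in the knockout, but only 1 of the 5 tested was called lower. Of these sums, Ly6g alone gave 24.9, 25.9, 7.23 and 30.0 CPM in wild-type replicates 1 to 4. In the knockout replicates it gave 2.15, 0.972, 7.38 and 6.64 CPM. Replicate 4 of both genotypes had 3 and 1 counts over 4 Y-linked genes, where the other 6 libraries had 1285 to 2061. In these bulk samples a change in the number of cells of a type and a change in RNA per cell cannot be told apart. The part that any of these markers play in the member differences was not tested.

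Of the 40 members tested, 28 rose in the knockout, 2 fell and 10 were not called, at an adjusted p below 0.05 (edgeR quasi-likelihood test, Benjamini-Hochberg over all tested genes). Among all tested genes 47.3% were called, 24.2% higher and 23.1% lower, so calls were common and the members' share called higher (70.0%) stands beside that background. Because the members were chosen with earlier results of these data known, the shares are a description and not a test. In 30 of the 40 members the libraries of the 2 genotypes did not overlap, against 45.4% of all tested genes. The median log2 fold of the members, knockout over wild type, was 0.92 (range −1.31 to 2.15), beside 0.034 for all tested genes. With scaling by library totals alone, all genes centred at −0.228 with 2089 higher and 4011 lower, where the reported fit had 3129 and 2976, and 24 members rose and 3 fell. A limma fit on log2 FPKM centred all genes at −0.249 with 2040 higher and 4289 lower, and 23 members rose and 4 fell. The members' median stayed 0.91 and 0.93 above that of all genes in those fits, against 0.89 in the reported one.

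**Figure D2:**
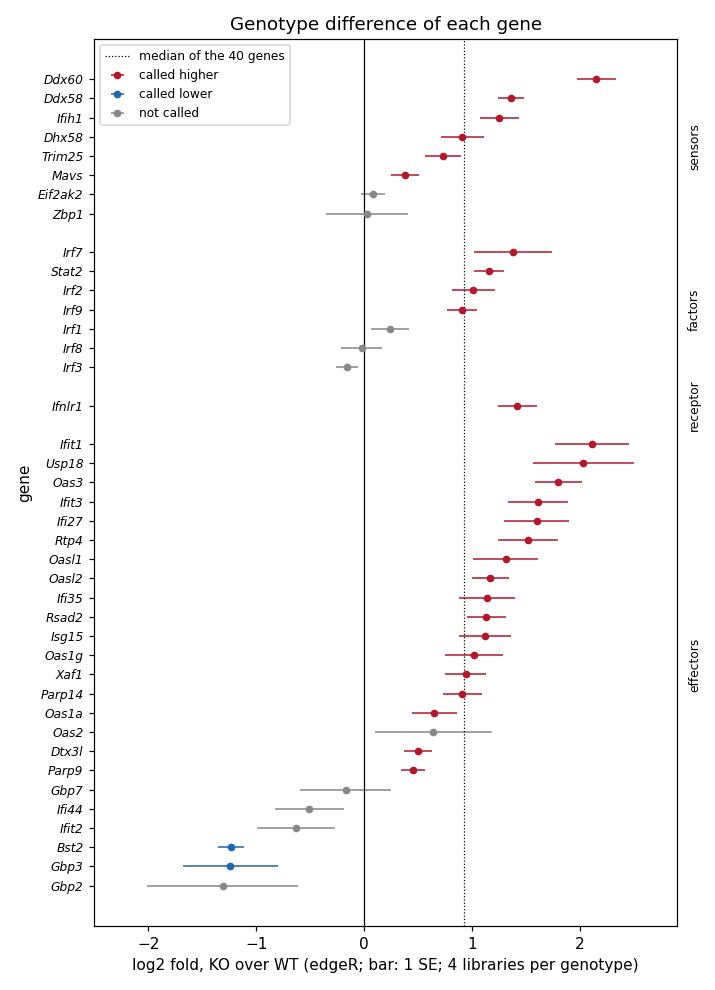
Log2 fold of each of the 40 tested members (knockout over wild type, points) with 1 SE (bars), by class, 4 libraries per genotype. Red points were called higher, blue lower and grey not called; the dotted line is the median of 0.92, and Bst2 and Gbp3 are the 2 genes called lower.

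The sensors rose in 6 of 8 cases, with a median log2 fold of 0.82. Values below are CPM in replicates 1 to 4, in that order. Ddx58, which encodes RIG-I, measured 32.1, 26.5, 34.4 and 27.4 CPM in wild type and 87.1, 79.5, 73.1 and 70.1 CPM in the knockout. The groups did not overlap, and the 4 libraries of each were close together. The rise was 2.57-fold (log2 1.36, SE 0.12, adjusted p = 0.00104). Ifih1, which encodes MDA5, went from 66.6, 71.7, 53.7 and 48.7 CPM to 183, 141, 116 and 132 CPM. Each knockout library lay above every wild-type one, knockout replicate 1 highest, and the rise was 2.38-fold (log2 1.25, SE 0.18, adjusted p = 0.00121). Dhx58 encodes LGP2, the RIG-I relative that lacks the signalling domains. Its levels were 11.3, 9.87, 7.35 and 8.64 CPM in wild type and 17.6, 22, 17.7 and 12.7 CPM in the knockout, without overlap. Dhx58 rose 1.88-fold (log2 0.91, SE 0.20, adjusted p = 0.00606).

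The sensor with the widest difference was Ddx60, a helicase described as a cofactor of RIG-I-like receptors. It measured 24.9, 26.0, 18.5 and 17.1 CPM in wild type and 108, 96.3, 75.3 and 102 CPM in the knockout. The lowest knockout library, replicate 3, was far above the highest wild-type one. The fold was 4.42 (log2 2.15, SE 0.18, adjusted p = 0.00104), the highest of all 40 members. Trim25, the ubiquitin ligase that assists RIG-I, measured 145, 143, 126 and 138 CPM in wild type and 294, 201, 176 and 246 CPM in the knockout. Its wild-type libraries were tight, the knockout ones spread, and the groups were apart, with a 1.66-fold rise (log2 0.73, SE 0.17, adjusted p = 0.00632).

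Mavs, the adaptor on the mitochondrial surface, moved little. It measured 33.6, 29.4, 33 and 30.2 CPM in wild type and 41.4, 37.4, 50.4 and 35.0 CPM in the knockout. The groups did not overlap and Mavs was called at 1.3-fold (log2 0.38, SE 0.13, adjusted p = 0.0379). The call was lost when any 1 library other than knockout replicate 4 was left out (log2 0.26 to 0.41), and under scaling by library totals the difference was 0.12.

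Zbp1 and Eif2ak2 were the sensors that were not called. Zbp1, which binds Z-form nucleic acid and can start cell death, measured 95.9, 102, 68.6 and 43.9 CPM in wild type and 72.1, 43.2, 141 and 60.8 CPM in the knockout. Its highest library, knockout replicate 3, was also the highest in T and NK markers, and wild-type replicate 4, low in Zbp1, was the lowest. The log2 difference was 0.03 (SE 0.38, adjusted p = 0.952) and −0.40 without knockout replicate 3. Eif2ak2 encodes PKR, the kinase that halts translation on double-stranded RNA. It measured 46.9, 50.9, 48.4 and 60.7 CPM in wild type and 53.9, 49.2, 56.6 and 59.4 CPM in the knockout, fully overlapping (log2 0.08, SE 0.11, adjusted p = 0.572, and −0.18 with library totals).

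Among the factors, 4 of 7 rose, with a median log2 fold of 0.91. They included STAT2 and IRF9 of the ISRE-binding complex. Stat2 measured 44.7, 38.7, 37.6 and 29.3 CPM in wild type and 82.4, 71.8, 89.7 and 92.3 CPM in the knockout. The groups were well apart, and Stat2 rose 2.24-fold (log2 1.16, SE 0.14, adjusted p = 0.00108). Irf9, the DNA-binding partner, measured 45.3, 43.0, 39.1 and 41.1 CPM in wild type and 98.8, 80.2, 61.2 and 76.8 CPM in the knockout. Its wild-type libraries were nearly level, every knockout one was higher, and the rise was 1.88-fold (log2 0.91, SE 0.14, adjusted p = 0.00155).

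Irf7, which drives interferon genes and is itself interferon-induced, measured 145, 143, 67.0 and 50.9 CPM in wild type and 343, 295, 212 and 204 CPM in the knockout. The groups did not overlap, although wild-type replicates 1 and 2 held more than replicates 3 and 4. Its rise was 2.60-fold (log2 1.38, SE 0.36, adjusted p = 0.0117). Enterocyte markers split the wild-type libraries in the same way, with sums of 14200, 14300, 5010 and 2520 CPM. Irf2, usually described as a restraint on IRF1 targets, measured 49.3, 44.3, 37.0 and 31.5 CPM in wild type and 111, 82.8, 63.7 and 68.6 CPM in the knockout. Knockout replicate 1 was highest and no libraries overlapped. Irf2 rose 2.01-fold (log2 1.01, SE 0.20, adjusted p = 0.00386).

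The remaining factors, Irf1, Irf3 and Irf8, were not called. Irf1, an early target of interferon gamma, measured 142, 142, 129 and 97.6 CPM in wild type and 154, 124, 196 and 127 CPM in the knockout. Knockout replicate 3 was its highest library and wild-type replicate 4 its lowest (log2 0.24, SE 0.18, adjusted p = 0.306), and the sign turned with library totals (−0.0038). Irf8, a factor of myeloid and lymphoid cells, measured 148, 148, 124 and 108 CPM in wild type and 132, 112, 179 and 100 CPM in the knockout. Replicate 3 was again the top knockout library, and the groups overlapped (log2 −0.02, SE 0.19, adjusted p = 0.952; 0.04 on dropping wild-type replicate 1 or 2, or replicate 4 of the knockout). Irf3, the factor that MAVS activates through phosphorylation, measured 55.8, 47.3, 47.7 and 50.6 CPM in wild type and 45.4, 47.6, 48.1 and 39.4 CPM in the knockout. Its libraries were close to level (log2 −0.16, SE 0.10, adjusted p = 0.238), and scaling by library totals called it lower (log2 −0.42, adjusted p = 0.0283).

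The receptor chain Ifnlr1, which gives epithelial cells their response to interferon lambda, rose. It measured 10.6, 12.5, 8.25 and 10.7 CPM in wild type and 32.4, 27.8, 20.8 and 30.9 CPM in the knockout. Every knockout library was above every wild-type one, with replicate 3 lowest in both genotypes. The rise was 2.67-fold (log2 1.42, SE 0.18, adjusted p = 0.00114).

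**Figure D3:**
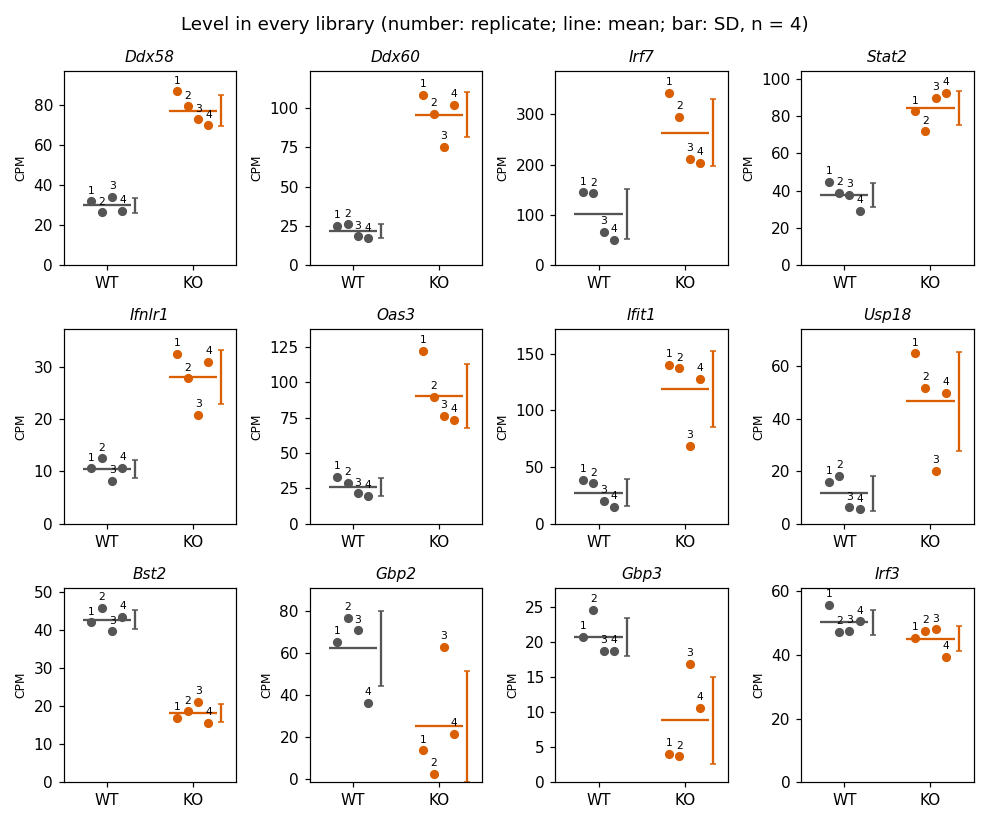
CPM in every library for 12 members, wild type (WT, grey) and knockout (KO, orange). Numbers give the replicate, horizontal lines the mean and bars the SD (n = 4). Knockout replicate 3 sits lowest of its group in Ifit1 (69.0 CPM) and highest in Gbp2 (63.0 CPM).

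Of the 24 effectors tested, 17 rose and 2 fell, with a median log2 fold of 0.98. The IFIT proteins bind foreign RNA ends and block its translation, and the 3 measured members did not move together. Ifit1 measured 39.1, 35.8, 20.3 and 15 CPM in wild type and 140, 137, 69.0 and 128 CPM in the knockout. Knockout replicate 3 stood apart, below the other knockout libraries and above all of wild type. The rise was 4.32-fold (log2 2.11, SE 0.34, adjusted p = 0.00169). Ifit3 measured 7.82, 7.26, 10.5 and 8.15 CPM in wild type and 29.1, 38.8, 16.8 and 18.8 CPM in the knockout, without overlap. Ifit3 rose 3.06-fold (log2 1.61, SE 0.28, adjusted p = 0.00199). Ifit2 measured 16.0, 13.7, 16.4 and 8.48 CPM in wild type and 5.83, 4.95, 15.2 and 9.36 CPM in the knockout. Its groups overlapped through wild-type replicate 4 and knockout replicates 3 and 4, and the log2 difference of −0.63 (SE 0.36, adjusted p = 0.179) became −1.03 without knockout replicate 3 (adjusted p = 0.0215).

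Ifit3 shares reads with a near copy. Its coding sequence is 99.1% identical to that of Ifit3b, and the deposited counts of the pair, not whole singly, added up to whole numbers in all 8 libraries (within 0.015). Ifit3b alone measured 2.81 to 4.39 CPM over the 8 libraries, so how reads were divided matters for the level of each. Summed, the pair measured 10.9, 11.7, 14.5 and 11.5 CPM in wild type and 33.2, 42.9, 20.4 and 21.6 CPM in the knockout. The sum rose 2.43-fold (log2 1.28, SE 0.24, adjusted p = 0.00305), in place of 3.06-fold for Ifit3 alone. Ifit1, Ifit2 and Ifit3 are further apart, at 58.4% to 63.6% identity.

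The OAS enzymes sense double-stranded RNA and, in their active members, make the messenger that switches on RNase L. Of the 6 tested, 5 rose. Oas3 measured 33.1, 29.1, 21.7 and 19.7 CPM in wild type and 122, 89.7, 76.1 and 73.3 CPM in the knockout. Its groups were far apart, and it rose 3.49-fold (log2 1.80, SE 0.22, adjusted p = 0.00108). Oasl1 measured 87.7, 67.4, 49.4 and 34.3 CPM in wild type and 211, 135, 130 and 117 CPM in the knockout. Wild-type libraries varied more than 2-fold, but none reached the knockout range, and the rise was 2.48-fold (log2 1.31, SE 0.30, adjusted p = 0.00642). Oasl2 measured 117, 117, 78.0 and 77.9 CPM in wild type and 245, 211, 204 and 219 CPM in the knockout. Its knockout libraries were close together, and it rose 2.25-fold (log2 1.17, SE 0.17, adjusted p = 0.00129).

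Oas1a and Oas1g lie side by side and their coding sequences are 96.7% identical. Oas1a measured 73.4, 74.1, 43.4 and 50.8 CPM in wild type and 114, 107, 76.6 and 80.4 CPM in the knockout. Oas1g measured 27.1, 35.5, 16.5 and 17.6 CPM in wild type and 65.0, 50.6, 37.8 and 42.6 CPM in the knockout. Both were without overlap, at 1.57-fold for Oas1a (log2 0.65, SE 0.21, adjusted p = 0.0306) and 2.03-fold for Oas1g (log2 1.02, SE 0.27, adjusted p = 0.0126). Their counts too were not whole singly and whole as a sum in all 8 libraries, so the division between them is uncertain. The sum rose 1.70-fold (log2 0.76, SE 0.23, adjusted p = 0.021). Leaving out 1 library ended the call of Oas1a alone where that library was replicate 3 or 4 of wild type, or replicate 1 or 2 of the knockout (log2 0.51 to 0.57), and so did scaling by library totals (0.37).

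Oas2 was the exception of the family. It measured 9.65, 8.52, 10.7 and 8.59 CPM in wild type and 6.78, 3.54, 27.9 and 20.2 CPM in the knockout. The wild-type libraries were level, while knockout replicates 1 and 2 lay below all of them and replicates 3 and 4 above. Replicates 3 and 4 were also the knockout libraries with the high fibroblast markers (194 and 200 CPM). Wild-type replicate 3 had a like fibroblast sum (172 CPM), but its Oas2 level of 10.7 CPM was near that of the other wild-type libraries. The part of fibroblast content in the Oas2 values was not tested. The log2 difference was 0.64 (SE 0.54, adjusted p = 0.354), and −0.79 when the 3 libraries highest in fibroblast markers were left out.

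Isg15 and Usp18 form a pair: ISG15 is a ubiquitin-like protein that is attached to other proteins, and USP18 takes it off and also dampens the type I receptor. Isg15 measured 30.4, 27.9, 16.3 and 15.8 CPM in wild type and 58.7, 53.1, 41.8 and 41.6 CPM in the knockout. It rose 2.17-fold with no overlap (log2 1.12, SE 0.24, adjusted p = 0.00522). Usp18 measured 16.0, 18.3, 6.34 and 5.56 CPM in wild type and 64.8, 51.6, 20.2 and 49.7 CPM in the knockout. Knockout replicate 3 was only just above wild-type replicate 2, the others were far higher, and the rise was 4.07-fold (log2 2.03, SE 0.47, adjusted p = 0.00693).

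Several single effectors rose with them. Rsad2 encodes viperin, an enzyme that makes a chain-terminating nucleotide, and measured 13, 12.5, 10.6 and 9.25 CPM in wild type and 28.9, 25.7, 18.3 and 26.0 CPM in the knockout. The groups were apart and the rise was 2.19-fold (log2 1.13, SE 0.18, adjusted p = 0.0015). Rtp4 measured 26.2, 27.9, 15.4 and 19.7 CPM in wild type and 88.3, 71.2, 36.7 and 59.3 CPM in the knockout. Replicate 3 was lowest in both genotypes, and Rtp4 rose 2.88-fold (log2 1.52, SE 0.28, adjusted p = 0.00264). Xaf1, a proapoptotic interferon-induced gene, measured 11.3, 14.0, 7.53 and 9.75 CPM in wild type and 22.9, 19.4, 18.6 and 20.1 CPM in the knockout. Its knockout libraries were nearly level, at 1.91-fold the wild-type level (log2 0.94, SE 0.19, adjusted p = 0.00412).

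Ifi27, which encodes a small mitochondrial membrane protein, and Ifi35, which encodes an interferon-induced leucine zipper protein, also rose. Ifi27 measured 10.9, 11.9, 8.55 and 9.31 CPM in wild type and 44.2, 40.7, 18.8 and 19.3 CPM in the knockout. Knockout replicates 1 and 2 held more than 3 and 4, all above wild type, and the rise was 3.03-fold (log2 1.60, SE 0.30, adjusted p = 0.00302). Ifi35 measured 66.4, 73.5, 42 and 38.4 CPM in wild type and 152, 147, 93.0 and 93.6 CPM in the knockout. The same split of replicates 1 and 2 against 3 and 4 was seen in both genotypes, and the rise was 2.20-fold (log2 1.14, SE 0.26, adjusted p = 0.00677). Ifi44 was not called. It measured 7.05, 7.44, 6.99 and 6.83 CPM in wild type and 3.43, 3.62, 8.98 and 3.84 CPM in the knockout, where 3 libraries lay below all of wild type and replicate 3 above (log2 −0.51, SE 0.32, adjusted p = 0.213). Without knockout replicate 3 it was −0.96 (adjusted p = 0.00381).

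Parp14, Parp9 and Dtx3l rose by 1.37- to 1.88-fold. Parp14, an ADP-ribosyltransferase, measured 93.1, 75.9, 90.9 and 77.5 CPM in wild type and 149, 114, 208 and 164 CPM in the knockout, and rose 1.88-fold (log2 0.91, SE 0.18, adjusted p = 0.0035). Knockout replicate 3 was highest here, unlike in most genes that rose. Parp9 measured 79.1, 92.1, 79.2 and 76.5 CPM in wild type and 121, 110, 120 and 95.7 CPM in the knockout. Dtx3l, the ubiquitin ligase that partners PARP9, measured 79.4, 75.7, 86.0 and 72.8 CPM in wild type and 108, 92.2, 135 and 109 CPM in the knockout. Neither overlapped, at 1.37-fold for Parp9 (log2 0.45, SE 0.11, adjusted p = 0.0103) and 1.41-fold for Dtx3l (log2 0.50, SE 0.13, adjusted p = 0.0116). The 2 genes overlap by 682 bases on chromosome 16 (35938470 to 35939151, GRCm38), and the counts of each were not whole in 7 libraries. Unlike those of Oas1a and Oas1g, their counts did not add up to whole numbers in all 8 libraries. Whether the 2 genes shared reads with each other is thus uncertain. Summed, they rose 1.39-fold (log2 0.48, SE 0.12, adjusted p = 0.00879). With library totals neither was called (log2 0.19 for Parp9 and 0.25 for Dtx3l), nor was either without the libraries highest and lowest in T and NK markers (0.38 and 0.36). The limma fit on log2 FPKM called none of Parp9, Dtx3l and Parp14 (0.19, 0.22 and 0.62).

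Bst2 and Gbp3 were the 2 members that fell. Bst2 encodes tetherin, which holds budding virus particles at the cell surface. It measured 42, 45.8, 39.7 and 43.4 CPM in wild type and 17.0, 18.7, 21.2 and 15.7 CPM in the knockout. Both groups were tight and far apart, and wild type was 2.35-fold above the knockout (log2 −1.23, SE 0.12, adjusted p = 0.00104). The call held in all 19 alternatives run over all genes, at log2 −1.51 to −1.20. Its promoter carries the overlapping ISRE cores printed above.

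The guanylate-binding proteins (GBPs) attack membranes of intracellular microbes and are known as interferon gamma targets. Gbp3 measured 20.8, 24.6, 18.8 and 18.8 CPM in wild type and 4.12, 3.71, 16.9 and 10.6 CPM in the knockout. Knockout replicate 3 nearly reached the wild-type range, and wild type was 2.36-fold higher (log2 −1.24, SE 0.44, adjusted p = 0.0431). The Gbp3 call was lost without any 1 of the wild-type replicates, or without knockout replicate 1 or 2 (log2 −1.29 to −1.06), and without knockout replicate 3 the difference was −1.76. Gbp2 measured 65.5, 76.9, 70.9 and 36.4 CPM in wild type and 13.8, 2.56, 63.0 and 21.7 CPM in the knockout. Here 3 knockout libraries lay below every wild-type one and replicate 3 lay among them, so Gbp2 was not called in spite of the lowest log2 fold of all members (−1.31, SE 0.70, adjusted p = 0.154). Gbp7 measured 22.5, 20.7, 22 and 17.7 CPM in wild type and 12.9, 6.98, 37.2 and 16.7 CPM in the knockout, with the same 3 below and replicate 3 above (log2 −0.17, SE 0.42, adjusted p = 0.758). Without knockout replicate 3, Gbp2 was at −2.30 (adjusted p = 0.0103) and Gbp7 at −0.77 (adjusted p = 0.0393), and without knockout replicate 2 Gbp7 was at 0.02.

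**Figure D4:**
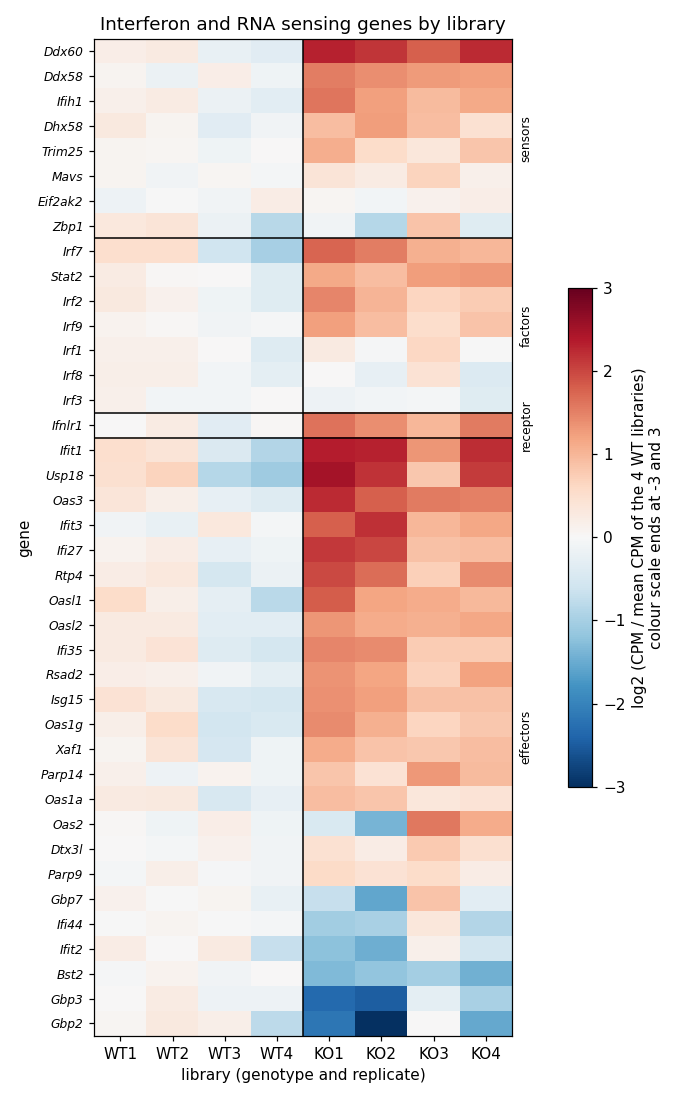
Log2 of each member's CPM over its mean in the 4 wild-type libraries, by library (columns) and gene (rows, grouped by class). Red is above and blue below the wild-type mean; the scale ends at −3 and 3. Most rows are red in all 4 knockout columns, and at the foot of the effectors Gbp2, Gbp3, Ifit2, Ifi44 and Gbp7 are blue in knockout replicates 1, 2 and 4 and paler or red in replicate 3.

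Across libraries the members showed a pair of contrasting orders. Among the 28 genes called higher, knockout replicate 1 was the highest knockout library in 22 and replicate 3 the lowest in 17, and wild-type replicate 4 was the lowest wild-type library in 15 and the highest in 0. All 3129 genes called higher showed a like order, with knockout replicate 1 highest in 60.4% and replicate 3 lowest in 52.3%. Among the 12 other members, knockout replicate 3 was the highest knockout library in 11 and replicate 2 the lowest in 8, where replicate 3 was highest in 29.8% of all tested genes. These groups were formed by the calls themselves, so the orders are descriptions. T and NK markers were highest in knockout replicate 3 (1990 CPM) and enterocyte markers in knockout replicate 1 (114000 CPM). Macrophage and dendritic cell markers were also highest in knockout replicate 3 (120 CPM, against 21.4 to 46.5 CPM in the other knockout libraries). Among the knockout libraries, B and plasma cell markers (10.3 CPM) and neutrophil markers (26.8 CPM) were highest there too. Leaving out the libraries with the highest and lowest T and NK markers (knockout replicate 3 and wild-type replicate 4) gave 25 members higher and 6 lower, the added ones being Gbp2, Gbp7, Ifit2 and Ifi44.

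**Figure D5:**
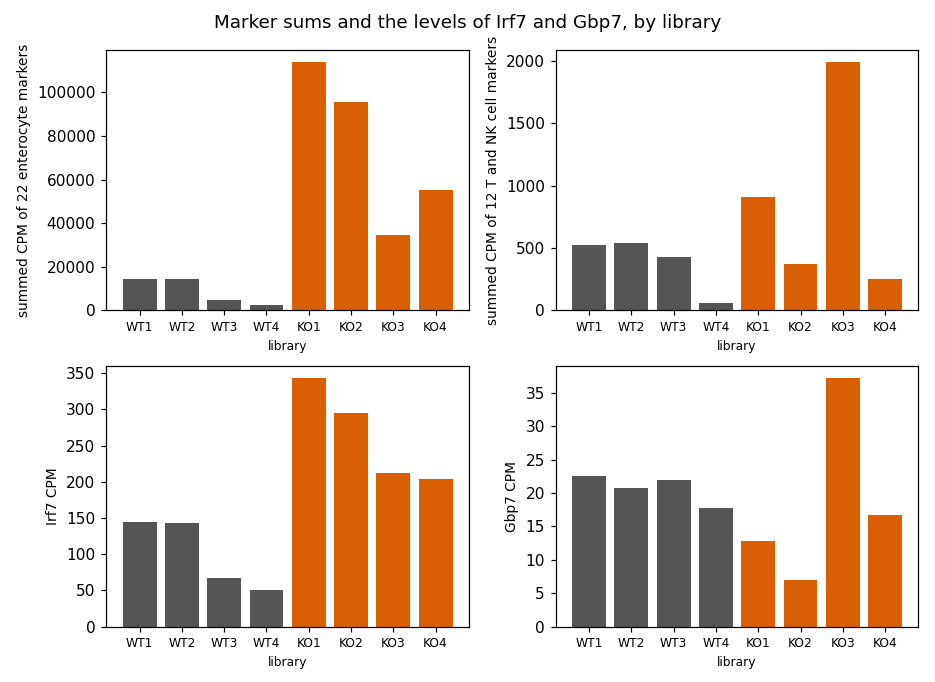
Summed CPM of 22 enterocyte and 12 T and NK cell markers (top) and CPM of Irf7 and Gbp7 (bottom) in each library, wild type grey and knockout orange; the 2 genes were chosen after their values were seen. Irf7 and the enterocyte sum are highest in knockout replicate 1 (343 and 114000 CPM), and Gbp7 and the T and NK sum in knockout replicate 3 (37.2 and 1990 CPM).

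Levels between genes were compared per length, in FPKM. In wild type the order was led by Zbp1 (79.1 ± 29.1 FPKM, mean ± SD, n = 4), Bst2 (72.6 ± 3.53), Irf1 (69.4 ± 10.4), Irf7 (64.7 ± 28.9) and Irf8 (53.1 ± 6.13). In the knockout it was led by Irf7 (139 ± 19.2 FPKM), Ifi35 (87.3 ± 12.7) and Oasl2 (84.5 ± 9.25). Bst2 went from rank 2 to rank 18 of 40 and Irf7 from rank 4 to rank 1. Ifi44 was last in both, at 2.81 ± 0.138 FPKM in wild type and 1.72 ± 1.15 in the knockout. Of 39 neighbouring pairs in the order, 37 in wild type and 38 in the knockout differed by less than the larger SD of the pair, so the order is coarse.

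The other genes of the pathway were taken from lists of 108 genes, none a member, of which 95 were tested. These lists too were chosen with earlier results of these data known. Of these 35 rose (36.8%) and 10 fell, with a median log2 fold of 0.27, beside 24.2% higher, 23.1% lower and a median of 0.034 among all tested genes. With library totals 22 rose and with limma on log2 FPKM 21. Of the 9 ligand genes on the list, 3 were matched to rows of the table and the others are not analysed here. Ifnk and Ifnl3 had 2 and 1 counts in all 8 libraries together, and Ifng alone was tested. Ifng, the gene of interferon gamma, measured 0.775, 0.359, 1.02 and 0.275 CPM in wild type and 1.80, 0.619, 4.79 and 0.281 CPM in the knockout. The highest value was in knockout replicate 3, and the groups overlapped (log2 1.59, SE 0.81, adjusted p = 0.134; 1.32 and adjusted p = 0.0391 with the replicate number as a block).

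Receptors, kinases and STATs rose in 8 of 10 cases (80.0%, against 24.2% of all tested genes). Jak2, which serves the gamma receptor, rose 2.49-fold (log2 1.32, SE 0.16, adjusted p = 0.00108). Il10rb, the chain that pairs with IFNLR1, rose 2.40-fold from a mean of 48.3 ± 6.61 to 116 ± 34.0 CPM (SD, n = 4; log2 1.26, adjusted p = 0.00185). Ifngr1 rose 1.76-fold (log2 0.81, adjusted p = 0.00231). Thus both chains of the interferon lambda receptor, Ifnlr1 and Il10rb, were higher in all 4 knockout libraries than in any wild-type one.

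Of the 14 genes that act below the RNA sensors, 6 rose (42.9%, against 24.2% of all tested genes). Tbk1, the kinase that phosphorylates IRF3, rose 1.88-fold (log2 0.91, adjusted p = 0.00247), Tradd 2.00-fold (log2 1.00, adjusted p = 0.00434) and Casp8 1.49-fold (log2 0.58, adjusted p = 0.00521; log2 0.31 and not called with library totals). Of 11 tested genes of DNA and endosomal sensing, 2 were higher (18.2%) and 2 lower. Neither share exceeded that of all tested genes (24.2% higher and 23.1% lower). Ticam1, the adaptor TRIF, rose 2.95-fold (log2 1.56, adjusted p = 0.00108), and Trex1, a DNA exonuclease, 2.03-fold (log2 1.02, adjusted p = 0.00837). The DNA sensor Cgas fell from 19.6, 21.2, 25.2 and 23.3 CPM to 7.55, 8.93, 12 and 10.3 CPM, so that wild type was 2.31-fold higher (log2 −1.21, SE 0.17, adjusted p = 0.00119). Its adaptor STING (Tmem173) fell from 31.1, 28.3, 32.5 and 37.1 CPM to 10.9, 6.10, 24.2 and 11.9 CPM, and wild type was 2.43-fold higher (log2 −1.28, SE 0.35, adjusted p = 0.0142). Neither gene overlapped between genotypes, and both moved opposite to Ddx58 and Ifih1.

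Among 44 other interferon-stimulated genes, 15 rose (34.1%, against 24.2% of all tested genes) and 5 fell (23.1% of all tested genes did). Samd9l (2.53-fold, log2 1.34), Sp100 (3.07-fold, log2 1.62) and Herc6 (3.10-fold, log2 1.63) had the smallest p among those that rose, with adjusted p of 0.00108, 0.00116 and 0.0015. On the falling side, Ifitm3, a membrane barrier to virus entry, went from 310, 350, 262 and 252 CPM to 72.2, 99.4, 133 and 114 CPM. Wild type was 2.81-fold higher (log2 −1.49, SE 0.20, adjusted p = 0.00116) with no overlap. Irgm1 (log2 −0.79, adjusted p = 0.0199) and Ifitm2 (log2 −0.47, adjusted p = 0.0306) also fell. The call of Irgm1 was lost without wild-type replicate 2 (log2 −0.70), and Ifitm2 lost its call when replicate 1 or 2 of wild type, or replicate 1 or 3 of the knockout, was dropped (log2 −0.45 to −0.40).

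Among 4 tested IRF family genes outside the members, Irf2bp1, a corepressor that binds IRF2, fell (log2 −0.98, adjusted p = 0.00114). Among 11 brakes on interferon signalling, 3 rose and 2 fell, and the share that rose (27.3%) was near the 24.2% of all tested genes. Rnf125, which marks RIG-I for degradation, rose 1.75-fold (log2 0.81, adjusted p = 0.00195). Cish, a SOCS-family gene, rose 2.71-fold (log2 1.44, adjusted p = 0.0156; 0.98 and not called with limma on log2 FPKM) with its highest value, 45.4 CPM, in knockout replicate 3. Cyld was called at log2 0.36 (adjusted p = 0.0468), a call lost without any 1 of 6 libraries, all but knockout replicates 2 and 4 (log2 0.24 to 0.39). Its call was lost in 13 of the 19 alternatives, with log2 0.1 under library totals and 0.06 with limma on log2 FPKM. Trim27 fell (log2 −0.78, adjusted p = 0.00155), and so did the phosphatase gene Ptpn2 (log2 −0.32, adjusted p = 0.0223). The Ptpn2 call was lost in 4 of the 19 alternatives. These were without wild-type replicate 2 (−0.27), with replicates 1 to 3 alone (−0.38), without the T and NK extremes (−0.34) and without the fibroblast-rich libraries (−0.35).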

How the data were processed

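Total RNA of small intestinal crypts was sequenced as 8 libraries, 4 per genotype. Groups and replicate numbers came from the sample labels. The authors deposited 1 table with read counts for every gene in each library. In a library, 8.04 to 9.18 percent of the counts had a fraction, so the deposited values were taken as estimated counts and rounded. A second set of deposited columns, with no unit in the header, was taken to be FPKM. In well-counted genes the ratio of value to count followed the library total, with a median relative SD over the libraries of 0.73 percent. Genes with low counts were not checked in this way. The submitters' processing notes name HISAT2 and DESeq2, with no role or version for either. No source used here gives the counter, genome build, annotation, strandedness or library kit. The labels name mice but do not say how they were bred or handled, so the p-values cover only how far these 8 libraries spread.

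The test was edgeR's quasi-likelihood test (version 4.0.16, R 4.3.3) on these counts, after filterByExpr and TMM scaling, with no term but genotype and Benjamini-Hochberg adjustment over 12908 genes, and a gene was called at an adjusted p below 0.05. The script was tested on simulated data. CPM uses TMM factors. For a log2 fold the SE is its size over the root of F. The members and lists were chosen with earlier results of these data known. Values in every library are given for members called with a log2 fold of at least 0.5 in size and for the most abundant uncalled ones, here extended to all 40. Of each pathway list up to 3 called genes per direction with the smallest p are named, or with no call its most abundant gene; some genes that this rule takes are not reported here. Same-numbered libraries correlated at 0.39 to 0.55 in their deviations from the group means, and differently numbered ones at −0.57 to 0.54. Wild-type replicate 2 correlated more with knockout replicate 1 (0.54) than with knockout replicate 2 (0.39). The numbers may pair the libraries, but these correlations do not settle it, and no label explains the numbers. The fit behind every printed fold and p is unpaired, and a pairing by number enters as a replicate block in an alternative alone. Alternatives were other size factors (median of ratios, upper quartile, library totals), other filters (none, or a mean of at least 50 counts), DESeq2 1.42.0, limma 3.58.1 on log2(FPKM + 0.1), a replicate block and left-out libraries.

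Promoters and microRNAs came from RefSeq tables on GRCm38.p6, and 3′ UTRs and coding sequences from GENCODE on GRCm38. Identity was computed between coding sequences, as identical bases over the shorter one in a global alignment (Biopython 1.88), because no protein table was used here.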

Additional observations from a re-analysis of the deposited data

Results flagged for a closer look

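In 2 of 80 groups of 4 libraries (40 members in 2 genotypes), 1 library lay far from its nearest neighbour relative to the group's whole range, by a measure (Dixon's ratio) that chance alone passes in about 1 in 20 groups. Both were knockout replicate 3. Ifit1 stood there at 69.0 CPM, below 128 to 140 CPM in the other knockout libraries. Ifi44 stood there at 8.98 CPM, above 3.43 to 3.84 CPM in the others. Knockout replicate 3 also had the fewest counts (9481201). Its sums of T and NK markers (1990 CPM) and of macrophage and dendritic cell markers (120 CPM) were the highest. The part of any of these in the flagged values was not tested.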

How the results depend on the processing

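Of the 30 called members, 24 kept their call in all 19 alternatives run over all genes, and Mavs, Oas1a, Gbp3, Dtx3l, Parp9 and Parp14 lost it in 14, 7, 7, 4, 3 and 1. The count of members that fell, 2, became 4 with limma on log2 FPKM (adding Irf3 and Gbp2), 1 with replicates 1 to 3 alone, and 6 without the libraries highest and lowest in T and NK markers or without the 3 highest in fibroblast markers, both chosen after seeing the data. Leaving out 1 library at a time gave 1 to 6, the 6 without knockout replicate 3. The members' median log2 fold was 0.68 with library totals and 0.68 with limma. Pathway genes that rose, 35, numbered 22 and 21 under those settings. Those that fell, 10, ranged from 5 (without wild-type replicate 2) to 18 (without knockout replicate 3) with 1 library left out, and were 6 with replicates 1 to 3 and 17 without the T and NK extremes. The cause of these shifts was not tested. With the replicate block, which treats same-numbered libraries as paired, 7226 genes were called and the members again gave 28 higher and 2 lower; Ifng was the one named gene whose call changed.

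Signs turned for 6 uncalled members. Zbp1 was at −0.05 with upper-quartile factors, −0.16 with library totals, −0.0035 with no filter, −0.31 with limma, −0.03 with the replicate block, −0.11 with replicates 1 to 3, −0.60 without the T and NK extremes, −0.47 without the fibroblast-rich libraries and −0.40 to 0.19 with 1 library left out. Eif2ak2 was at −0.008, −0.18 and −0.18 with upper-quartile factors, library totals and limma, at −0.03 without the fibroblast-rich libraries and at −0.0032 to 0.17 with 1 left out. Irf1 was at −0.0038, −0.04 and −0.03 with library totals, limma and without the T and NK extremes. Irf8 was at 0.01 under the filter of 50 mean counts and −0.21 to 0.04 with 1 left out. Oas2 was at −0.06 with limma and −0.79 without the fibroblast-rich libraries, and Gbp7 ranged from −0.77 to 0.02 with 1 left out. Of the genes with values in every library, Ifng had the fewest counts (mean 1.24 CPM) and so the largest relative counting error.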
